A study of Mus musculus with 2 samples.

Results

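The genes described here gave less signal in Ccr7 knock-out than in wild-type lymph-node B cells on both arrays of the study. They were chosen by their measured ratios. A probe was taken where the log2 of knock-out over wild-type processed signal was at or below -0.75 on each array, all 4 channels were well above background, no channel had been scaled up from the low-gain scan and no spot was marked as an outlier. Clone, accession and Rik names were left out, as were names starting with Fos, Jun, Egr, Klf, Dusp, Rgs, Hist, Hspa or Ccl. This gave 57 probes of 56 genes, out of 21814 probes and 10176 named genes that passed the same filters. The rule used the ratios of both arrays, which are all the arrays of the study, so the ratios below are a description and no test was run on them.

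The study compared RNA of B cells, sorted by flow cytometry from peripheral lymph nodes and not cultured, between 2 genotypes. Wild-type mice were of strain C57BL/6J, and knock-out mice were of strain B6.129P2(C)-Ccr7tm1Rfor/J, which carries a targeted Ccr7 allele. RNA of 6 sorted samples per genotype was combined in pools of 3, and each of the 2 dual-colour arrays held 1 wild-type and 1 knock-out pool. The knock-out was labelled with Cy5 on array 1 and with Cy3 on array 2. The sources used here do not give ages or the number of animals behind a sorted sample. Each array is 1 replicate (n = 2), so an SD below measures the spread between 2 pairs of pools, with the dye included.

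CCR7 is the receptor of the chemokines CCL19 and CCL21, and it steers T cells, B cells and dendritic cells to and within lymphoid tissue. B cells enter the node through its high endothelial venules, settle in follicles under the control of other chemokine receptors, and use CCR7 to approach the border with the T-cell zone. Antigen, adhesion and handling of the tissue induce a short-lived set of immediate early genes in such cells, and many lymphocyte genes also follow the circadian clock.

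The shares of spots well above background were 63.1% and 68.8% in the wild-type and 68.2% and 58.4% in the knock-out channels of arrays 1 and 2, and no spot was saturated. All 15 B-cell markers on the array were well above background in all 4 channels. Of 21814 probes, 92 (0.422%) were lower in the knock-out on both arrays at the threshold and 58 (0.266%) were higher, while 25 passed it in opposite directions. Of the 92 lower probes, 25 had clone, accession or Rik names and 10, of 9 genes, belonged to the families left out by name. The 56 genes that remained are 0.55% of the named genes. One array alone put 825 (array 1) or 338 (array 2) probes at or below the threshold.

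Over the 56 genes the median was -1.15 on array 1 (-2.35 to -0.76) and -0.97 on array 2 (-2.17 to -0.76). The mean of both arrays ran from -2.04 to -0.79 with a median of -1.09, which is 2.12-fold lower (1.73-fold to 4.12-fold). The 2 ratios of a gene differed by a median of 0.29, against 0.25 over all probes that passed. The scanner program's own error of a ratio had a median of 0.24 on each array. In 46 of the 56 genes (82.1%) both knock-out signals lay below both wild-type signals, which held for 6.78% of all probes that passed. The rule makes such an order likely, so it adds nothing to the ratios. Only 16 genes were lower by 1 or more on the log2 scale on both arrays.

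**Figure D1:**
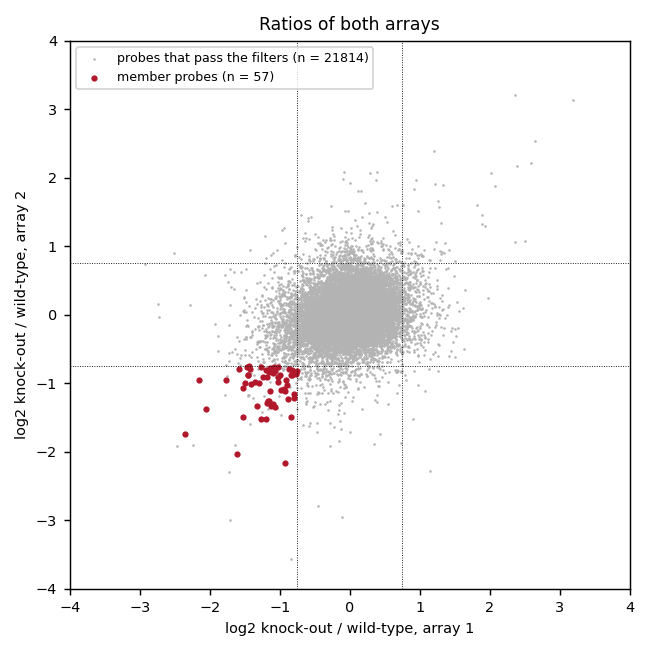
Log2 knock-out over wild-type ratio on array 1 (x axis) and array 2 (y axis) for each of the 21814 probes that passed the filters (grey) and the 57 member probes (red), with dotted lines at 0.75 and -0.75. The members lie in the lower left corner by construction, together with grey probes that were left out by name. Another 58 grey probes lie past the lines in the upper right corner and 25 in the corners of opposite sign.

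**Figure D2:**
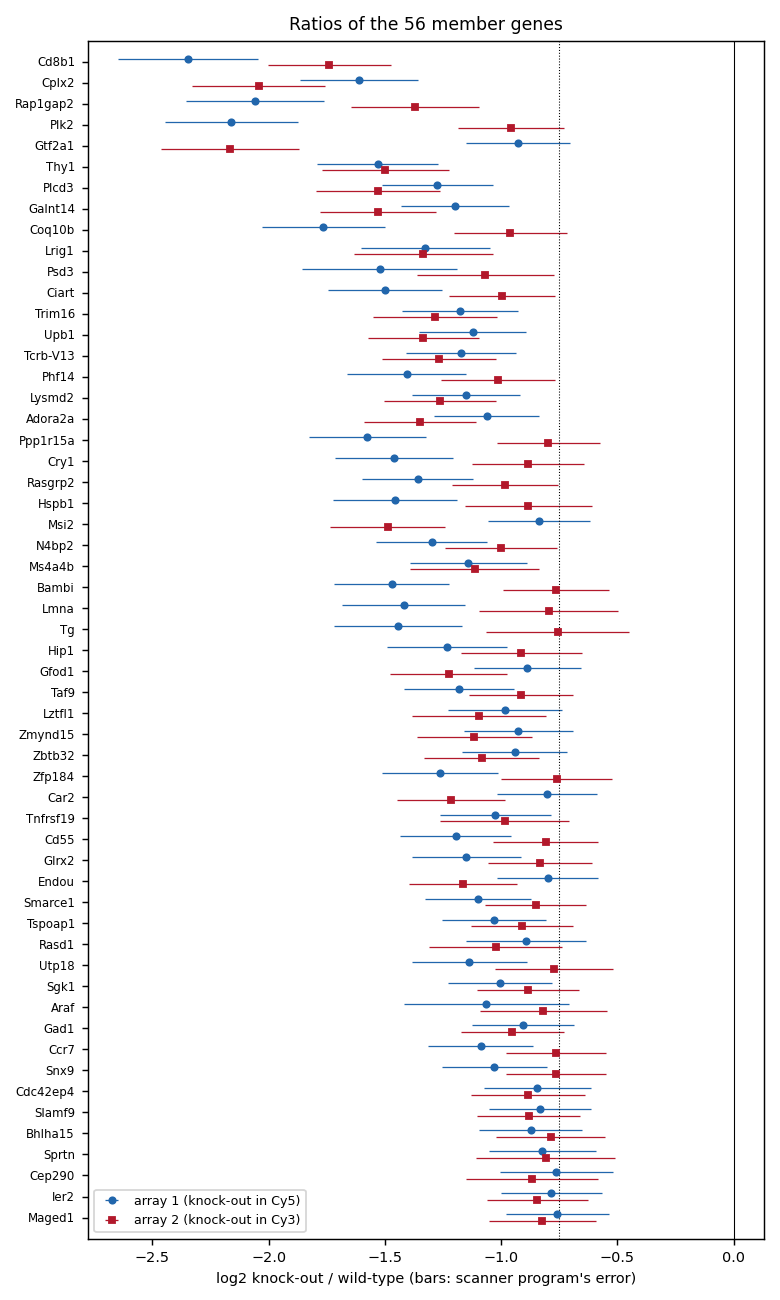
Log2 knock-out over wild-type ratio for the 56 genes (y axis, ordered by the mean of both arrays) on array 1 (circles, knock-out in Cy5) and array 2 (squares, knock-out in Cy3), with bars for the scanner program's error and a dotted line at -0.75. Cd8b1 is at the top with a mean of -2.04 and Maged1 at the bottom with -0.79, and the ratios of Plk2 and Gtf2a1 on the 2 arrays stand far apart.

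The members were mostly measured by dim probes. Split into 5 equal classes by signal over all probes that passed, 20 members fell in the dimmest class, 21 in the second, 11 in the third, 3 in the fourth and 1 in the brightest. Their median signal was 257 (wild-type) and 100 (knock-out) on array 1 and 136 and 62.1 on array 2, in intensity units of the scanner program, against 520, 522, 427 and 431 over all probes. A lower limit on signal in every channel, as the rule sets, also keeps out genes that were not well above background in the knock-out. With the limit on the wild-type channels alone, 131 genes met the threshold. In bulk RNA of sorted cells, fewer cells of a type and less RNA per cell cannot be told apart.

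At the threshold, the members just inside were Tg (-1.44 on array 1 and -0.76 on array 2), Zfp184 (-1.26 and -0.76) and Maged1 (-0.76 and -0.82). Just outside lay Brwd1 (-0.92 and -0.75), Them4 (-0.94 and -0.75) and Zfp36 (-0.90 and -0.74).

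Ccr7 itself, the targeted gene, was a member. Its probe has 60 bases, and the files place it at chromosome 11, 98960289 to 98960314 on mm8, the build that they name. That interval is shorter than the probe and so does not place all of it. The first 30 bases, shown to say what was measured, are as follows.
Ccr7 probe: cttctagcttagagagatgtcccggagatt
The Ccr7 signal was 5335 and 3704 in the wild-type channels of arrays 1 and 2, and 2509 and 2181 in the knock-out channels. Both knock-out pools lay below both wild-type pools and stayed well above background. Its log2 ratio was -1.09 on array 1 and -0.76 on array 2, a mean of -0.93 ± 0.23 (SD, n = 2) or 1.90-fold lower. The sources used here do not say which part of Ccr7 the allele lacks, so the remaining signal does not measure the deletion. Of 24 migration and adhesion genes that passed the filters, Ccr7 was the only member, and S1pr2, a receptor that confines B cells to germinal centres, was past the threshold upward at 0.98 and 0.83. The list's median was 0.04, with 8 genes lower and 8 higher on both arrays by any amount, beside 25.9% lower and 30.7% higher among all named genes and a median of 0.02. Cxcr4, a receptor of marrow and germinal-centre homing, had 0.41 and 0.49, and S1pr1, the receptor for egress from the node, had -0.17 and -0.12.

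Genes known from T cells included the member with the lowest mean. Cd8b1 encodes the beta chain of the CD8 co-receptor and Thy1 a surface glycoprotein of mouse T cells. Tcrb-V13 stands for the T-cell receptor beta chain, named in the file after a variable segment. Other probes of that name lie 319 to 411 kb from its member probe. The name therefore does not show that the member probes measure this segment. Their probes start with these 30 bases, shown because the results on T-cell genes rest on them.
Cd8b1 probe: ggaccctggagaagactgcaaatcctcaca
Thy1 probe: cactgctacagcatctcaccgaggaaagaa
Tcrb-V13 probe: gatctgagaaatgtgactccacccaaggtc
Cd8b1 (chromosome 6, 71266583 to 71266641 on mm8) had signals of 372 and 203 in the wild-type and 73.1 and 60.9 in the knock-out. Its ratio was -2.35 on array 1 and -1.74 on array 2, a mean of -2.04 ± 0.43 (SD, n = 2). Thy1 (chromosome 9, 43799512 to 43799571) had 164 and 124 in the wild-type and 56.6 and 43.7 in the knock-out, with nearly equal ratios of -1.53 and -1.499. In both genes the genotypes did not overlap. Tcrb-V13 was the only gene with 2 member probes, at means of -1.22 and -1.20, and its brightest probe that passed had -0.52 and -0.59. Ms4a4b, a membrane protein of the CD20 family known from T cells, had ratios of -1.14 and -1.11, while its brightest probes had means of 0.41 and 0.24.

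The other T-cell markers had ratios on both sides of 0. Of 19 listed markers 17 were on the array and 12 passed the filters, 10 of them besides Cd8b1 and Thy1. Of these 10, by the brightest probe of each gene, 3 were lower and 2 higher on both arrays by any amount, with a median of 0.03, beside 0.02 for all named genes. By the brightest probe of each gene, the 17 markers summed to 22282 and 17729 in the wild-type and 23574 and 17065 in the knock-out. For Cd8b1 the sum and the share below use a probe placed on chromosome 5, not the member probe. That probe had 1511 and 1051 in the wild-type and 1800 and 1150 in the knock-out. Cd2 and Lck carried 84.5% and 84.8% of the wild-type signal of the markers that passed, so dim markers hardly move this sum. Without them the other 8 non-members summed to 1746 and 1484 in the wild-type and 1833 and 1078 in the knock-out. Each marker on the array was above background in at least 1 channel. Cd3d, a chain of the T-cell receptor complex, had -0.63 and -0.87, and Cd8a, the partner chain of Cd8b1, had -1.08 and -0.43. Cd3e had 0.38 and -0.21, Lck, a kinase of T-cell receptor signalling, 0.30 and 0.08, and Cd4 0.05 and -0.12. The part of T-cell RNA in the ratios of Cd8b1, Thy1 and Tcrb-V13 was not tested. Of the dendritic-cell markers, 11 passed with a median of 0.07, Ccr7 was the only member, and Ccl22, Clec9a and Siglech were not well above background in any channel.

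Immediate early and feedback genes whose names the rule did not leave out gave 4 members. Plk2 is a polo-like kinase induced by growth stimuli and stress, Ppp1r15a directs a phosphatase to the translation factor eIF2 during recovery from stress, Sgk1 is a kinase induced by serum and glucocorticoids, and Ier2 encodes a nuclear immediate early protein. Plk2 signals were 743 and 237 in the wild-type and 166 and 122 in the knock-out, with ratios of -2.16 and -0.96 (mean -1.56 ± 0.85, SD, n = 2). Its size therefore differed between the arrays by more than its distance from 0 on array 2. Ppp1r15a had 684 and 206 in the wild-type and 230 and 118 in the knock-out, and here the knock-out signal of array 1 exceeded the wild-type signal of array 2. Its ratios were -1.58 and -0.80. Sgk1, a bright probe, had 4367 and 2034 in the wild-type and 2178 and 1102 in the knock-out, with ratios of -1.003 and -0.885 and the same overlap across arrays. Ier2 had 866 and 589 against 503 and 328, with ratios of -0.78 and -0.84.

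Of the 47 genes listed for this group 34 passed the filters, 15 were lower and 7 higher on both arrays, and their median was -0.12. Among all named genes 25.9% were lower and 30.7% higher on both arrays, and 0.55% were members. Zfp36, which destabilises inflammatory mRNAs, missed the threshold at -0.90 and -0.74. Phlda1, Trib1 and Pim1 had means of -0.85, -0.68 and -0.58, while Cd69, an early activation antigen, had 0.34 and 0.74. Among the families left out by name, 26 listed genes passed with a median of -0.33, and 14 were lower and 4 higher on both arrays. Rgs13, a regulator of G-protein signalling, was past the threshold upward at 1.35 and 0.90. Fos had -1.75 and -0.89, Klf4 -1.46 and -1.19, and Hspa1a, a heat shock protein, -1.43 and -1.18, while Hspa8 of the same family had 0.95 and 0.33. The heat shock gene left in, Hspb1, had -1.46 and -0.88. Without dye normalisation, a choice described below, Hspb1 had -1.23 and 0.11. The sources used here give no handling times before the sort.

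Another 2 members repress the circadian clock, and their list of clock genes was drawn up after these values had been seen. Cry1, a core repressor of the clock, had signals of 184 and 123 in the wild-type and 66.9 and 66.6 in the knock-out, with ratios of -1.46 and -0.88. Ciart, the circadian associated repressor of transcription (Gm129 in the file), had 774 and 259 against 274 and 130, with ratios of -1.4998 and -0.996. The knock-out signal of Ciart on array 1 was above its wild-type signal on array 2. Of 13 clock genes that passed, these were the 2 lower on both arrays and 4 were higher, beside 25.9% and 30.7% of all named genes. Nfil3, a repressor of clock output, had 1.89 and 1.46. Per1 had 0.26 and 0.18, Per2 -0.07 and 0.82, and Clock -0.04 and 0.03. The other passing probe of Cry1 had a mean of 0.05. The sources used here give no time of day for the sorts.

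The E-box is the binding site of the clock activators, and the cyclic AMP response element (CRE) that of factors activated by cyclic AMP. The 150 bases before the starts of 4 of the members above that hold one of them are shown, from RefSeq on GRCm38.p6. They lie at chr13:110394894-110395043 (plus strand, Plk2), chr7:45526269-45526418 (minus, Ppp1r15a), chr10:85185055-85185204 (minus, Cry1) and chr3:95882229-95882378 (minus, Ciart). Capitals mark the CRE (TGACGTCA) in the first pair and the E-box (CACGTG) in the second.
Plk2: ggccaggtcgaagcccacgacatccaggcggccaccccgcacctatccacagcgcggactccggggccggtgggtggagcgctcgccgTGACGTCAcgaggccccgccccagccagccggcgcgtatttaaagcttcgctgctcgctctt
Ppp1r15a: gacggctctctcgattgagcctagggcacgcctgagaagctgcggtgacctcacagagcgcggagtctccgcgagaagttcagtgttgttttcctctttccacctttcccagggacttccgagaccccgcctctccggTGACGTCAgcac
Cry1: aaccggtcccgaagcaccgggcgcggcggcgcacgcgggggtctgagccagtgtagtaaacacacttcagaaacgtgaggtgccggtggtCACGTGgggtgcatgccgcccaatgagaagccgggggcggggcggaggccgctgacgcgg
Ciart: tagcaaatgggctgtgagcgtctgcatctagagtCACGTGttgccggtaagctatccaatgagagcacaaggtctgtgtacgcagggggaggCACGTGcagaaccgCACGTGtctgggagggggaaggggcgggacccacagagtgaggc
Ciart holds 3 E-boxes in this stretch and each of the others 1 element. Over windows from 250 bases before to 50 after each start, 37 of the 56 genes had a RefSeq entry, against 8105 of the named genes that passed the filters. A gene with several starts was counted where any of its windows held the motif. Both strands were searched, and no matches of different motifs overlapped in a member window. The E-box was found in 11 of the 37 (29.7%) against 11.3% of the 8105 genes, in Ciart, Coq10b, Cry1, Glrx2, Gtf2a1, Lztfl1, Msi2, Sgk1, Slamf9, Tnfrsf19 and Utp18. The CRE was found in 3 (8.11%) against 3.34%, in Msi2, Plk2 and Ppp1r15a. The Egr motif GCGNGGGCG was found in 4 (10.8%) against 11.6%, the AP-1 motif TGANTCA in 2 (5.41%) against 6.32%, the CArG box in 2 (5.41%) against 1.55%, the kappaB site in 6 (16.2%) against 11.9% and the heat shock element in 0 against 0.592%. Counted per window, the E-box was in 13 of the 60 member windows (21.7%) against 7.15% of the 32851 windows of all genes with an entry. These 27025 genes include genes that did not pass the filters, and by gene 8.09% of them held the E-box. This background is thus lower than that of the 8105 genes. The 13 windows include overlapping windows of Msi2 that hold the same E-boxes. Members had 60 windows for 37 genes, so more windows were searched per member than per gene with an entry. All of these are counts of letters in a window and do not show that a factor binds.

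Several members act in receptor and small GTPase signalling. Adora2a, the adenosine receptor that raises cyclic AMP in lymphocytes, had 635 and 388 in the wild-type and 304 and 152 in the knock-out, with ratios of -1.06 and -1.35. The genotypes did not overlap for this probe. Rap1gap2 (Garnl4 in the file), which switches off the GTPase Rap1, had 148 and 98.9 against 35.5 and 38.2, with ratios of -2.06 and -1.37. Rasgrp2, an exchange factor that switches Rap1 on, had -1.36 and -0.98. Psd3, an exchange factor for Arf GTPases, had -1.52 and -1.07, and Plcd3, a phospholipase C that cleaves phosphoinositides, had -1.27 and -1.53. Lrig1, an inhibitor of growth factor receptors, had the closest pair of ratios in the set, at -1.33 on both arrays. Bambi, a decoy receptor of the TGF-beta family, was printed in 10 spots on each array. Its spots ran from -1.74 to -1.36 on array 1 and from -0.97 to -0.59 on array 2, an SD of 0.11 within each array against 0.50 between the arrays.

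**Figure D3:**
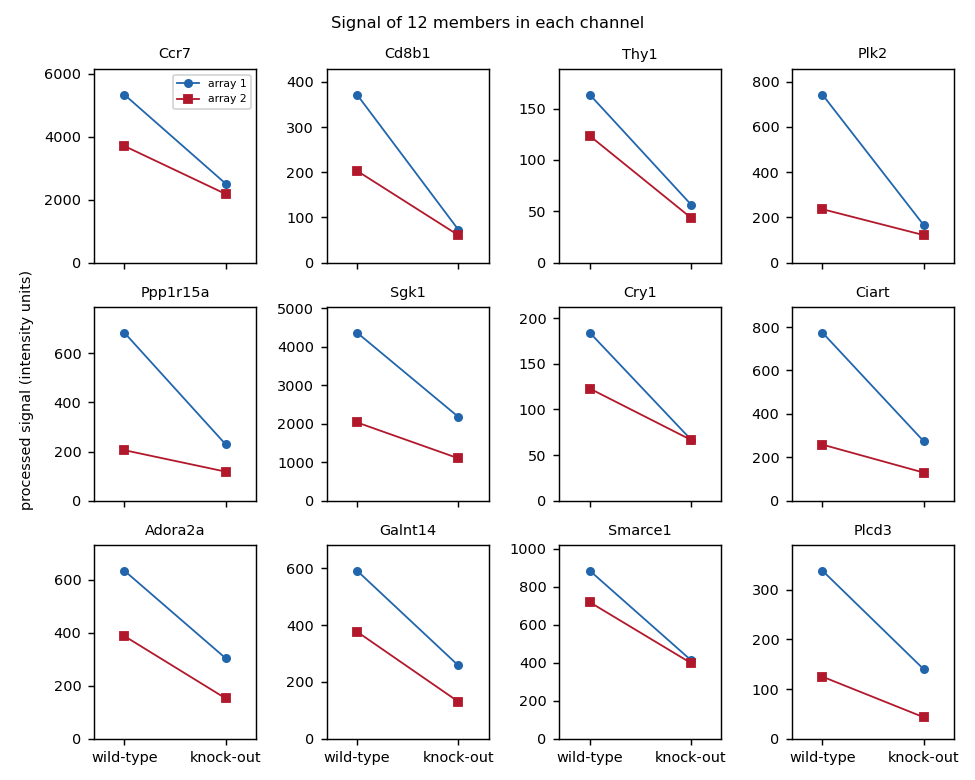
Processed signal (y axis, linear intensity units from 0, a separate scale per gene) in the wild-type and knock-out channel of array 1 (circles) and array 2 (squares) for 12 members, with a line joining the 2 channels of an array. All lines slope down by the rule, and in Plk2, Ppp1r15a, Sgk1, Ciart and Plcd3 the wild-type signal of array 2 lies far below that of array 1.

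Wild-type signal was higher on array 1 than on array 2 in 52 of the 56 members (92.9%), against 76.3% of all probes that passed. The lower ratio came from array 1 in 32 members and from array 2 in 24. The arrays differ in dye orientation and in pools together, so these cannot be told apart.

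Secretion and glycosylation were represented by single genes. Cplx2, a complexin that binds the fusion machinery of secretory vesicles, had 384 and 220 in the wild-type and 126 and 53.5 in the knock-out, with ratios of -1.61 and -2.04 (mean -1.83 ± 0.31, SD, n = 2). This was the second lowest mean of the set. Galnt14, an enzyme that starts mucin-type O-glycosylation, had 592 and 377 against 258 and 131, with ratios of -1.20 and -1.53. It was the only member among 16 listed glycosyltransferases, proteases and inhibitors that passed, of which 4 were lower and 9 higher on both arrays. Slpi, a protease inhibitor, and Serpina3f, a serpin, were past the threshold upward, at means of 1.61 and 1.31. Galnt1, of the same enzyme family, had 0.57 and 0.28. The Galnt14 probe (chromosome 17, 73398656 to 73398715 on mm8) starts with the following 30 bases, shown because this gene met the threshold under each of 3 ways of processing the spots.
Galnt14 probe: cttgtcactgtgccaggacgacatggagag

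The members named next act in transcription or on chromatin and were put together after their values had been seen. Gtf2a1, a subunit of the general factor TFIIA, had ratios of -0.93 and -2.17, the widest difference between arrays in the set. Its other probes that passed, both brighter, were higher on both arrays at means of 0.23 and 0.27. Taf9, a subunit of TFIID, had -1.18 and -0.91, and its brighter probes had means of 0.10 and 0.12. Smarce1, a subunit of SWI/SNF remodelling complexes, had -1.10 and -0.85. Smarce1 signals were 886 and 720 in the wild-type and 414 and 399 in the knock-out. Zbtb32, a repressor known from activated lymphocytes and plasma-cell differentiation, had 257 and 128 against 133 and 60.3, with ratios of -0.94 and -1.08. It was the only member among 22 B-lineage, marginal-zone and B1 genes that passed, whose median was 0.04. Spn, which marks B1 cells and T cells, had -0.57 and -0.81. Bhlha15, a factor of secretory cells, had -0.87 and -0.79, while its other passing probe, a dimmer one, had -0.11 and 0.16. The remaining regulators were Phf14, with a mean of -1.21, and Zmynd15 and Zfp184, with means of -1.02 and -1.01.

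Enzymes, membrane proteins and structural proteins accounted for most others. Car2, a carbonic anhydrase, had 1620 and 1487 in the wild-type and 929 and 640 in the knock-out, with ratios of -0.80 and -1.22. Upb1, an enzyme of pyrimidine breakdown, had a mean of -1.23, Coq10b, which binds coenzyme Q, -1.36, and Gad1, which makes the transmitter GABA, -0.93. The E3 ligase Trim16 had -1.23, Lysmd2 -1.21, the RNA-binding protein Msi2 -1.16, N4bp2 -1.15 and Lmna, the A-type lamin, -1.11. Cd55, which protects cells from complement, had a mean of -1.003, and Snx9, a sorting nexin of endocytosis, -0.90. The lists for NF-kB, type I interferon, B-cell activation, cell cycle, cell death and chromatin regulators held no member among 21, 30, 21, 21, 19 and 13 genes that passed, beside 0.55% members among all named genes. On the chromatin list the histone gene H2bc4 was lower at -1.22 and -1.19 and was left out by its Hist name. The clathrin adaptor Hip1 had a mean of -1.07, Gfod1 -1.06, Lztfl1, which regulates traffic into cilia, -1.04, and Tnfrsf19, a receptor of the TNF family, -1.01. Glutaredoxin Glrx2 had -0.99, the endoribonuclease Endou -0.98 and the kinase Araf -0.94. The smallest differences among these were those of Slamf9 (-0.86), the DNA repair protease Sprtn (-0.82) and the ciliary protein Cep290 (-0.81).

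Other probes of the same genes mostly had ratios nearer to 0. Of the 56 genes, 17 had no other probe on the array, and in 12 no other probe passed the filters. In the remaining 27 the brightest other probe had a median of -0.09 (-0.76 to 0.56), against -1.13 for their member probes. It was lower on both arrays in 14 genes, higher on both in 7 and of mixed sign in 6, and at the threshold on both in 0. It was brighter than the member probe in 24 of the 27. For Cd8b1 the other probe is placed on chromosome 5, where the files do not place the gene's member probe. Without it 26 genes remain, with a median of -0.13 and 6 higher on both arrays. Choosing the lowest probe of a gene favours such a gap, so its size is a description.

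Gad1 and Coq10b mark the ends of this range. Both Gad1 probes that passed, 0.098 kb apart, were lower, at means of -0.93 and -0.76. Coq10b had its member probe at -1.77 and -0.96, while its brightest other probe, 18.8 kb away, had 0.82 and 0.30. Its probes start with these 30 bases, shown because they give opposite directions for 1 gene.
Coq10b member probe: ctacaatgcagttttctattacaaataagg
Coq10b other probe: atgattcagtgttgttgggaagttgtttcc
Ier2 had a mean of -0.46 on its brightest probe, Adora2a 0.16, Rap1gap2 0.11 and Cplx2 -0.0048. On their brightest probes Cd55 had 0.10, Glrx2 0.03, Phf14 -0.18, N4bp2 -0.17 and Psd3 -0.20. Ccr7, Thy1, Plk2, Ppp1r15a, Sgk1, Ciart, Galnt14 and Smarce1 had no other probe that passed.

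**Figure D4:**
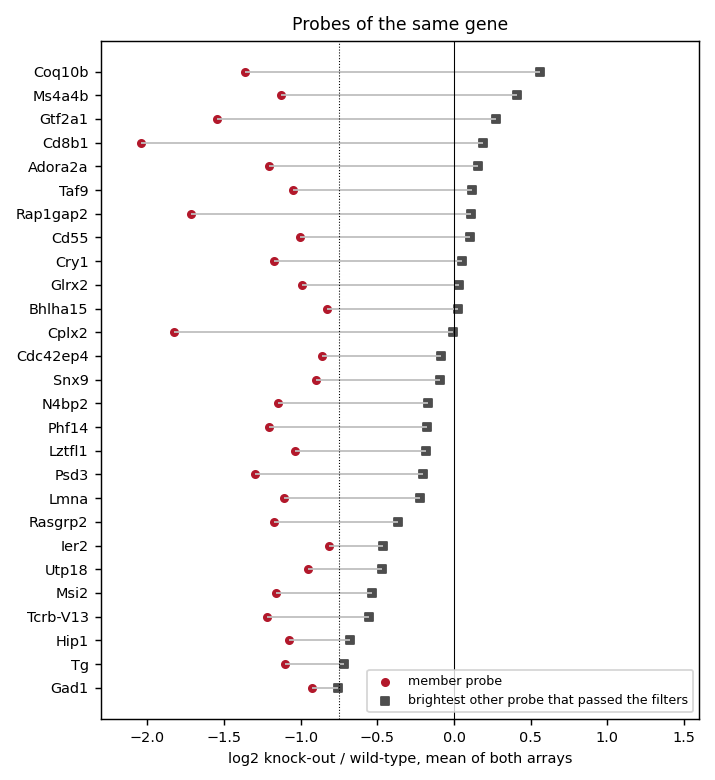
Mean log2 knock-out over wild-type ratio (x axis) of the member probe (circles) and of the brightest other probe that passed the filters (squares) in the 27 genes that have both (y axis), with a dotted line at -0.75. The squares run from -0.76 for Gad1 to 0.56 for Coq10b, and the square of Cd8b1 is a probe that the files place on another chromosome.

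Chromosome 11, which carries Ccr7, held more members than any other chromosome. Of the 55 members with a position in the files, 11 (20%) lay on it, against 8.66% of all named genes that passed and 7.69% of the 39 named genes higher on both arrays. Position was not part of the rule, and no test was run on it. All 11 lay within 40 Mb of the Ccr7 probe. Within 10 Mb 4 of 221 genes (1.81%) were members, from 10 to 20 Mb 3 of 166 (1.81%), from 20 to 40 Mb 4 of 267 (1.498%), and farther away 0 of 226. Ccr7 itself, the targeted gene, is counted among the 11 and among the 4 within 10 Mb. On the other chromosomes 44 of 9277 genes (0.474%) were members. Genes higher on both arrays made up 2 of the 221 (0.905%), 0 of the 166, 0 of the 267 and 1 of the 226 (0.442%), against 0.388% on the other chromosomes. The median over all genes was 0.05 within 10 Mb and 0.02 on the other chromosomes. Other processing of the spots is described below. With loess 16 members met the threshold, 3 of them on chromosome 11, and under all 3 ways 14 did, 2 of them there.

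The nearest member besides Ccr7 was Smarce1, 0.071 Mb from the Ccr7 probe (chromosome 11, 99031276 to 99031335 on mm8). Plcd3 lay 3.93 Mb and Utp18, which processes ribosomal RNA, 5.28 Mb away, with means of -1.40 and -0.95. Msi2 (10.8 Mb), Tspoap1 (11.4 Mb, a mean of -0.97) and Cdc42ep4, an effector of the GTPase Cdc42 (14.6 Mb, -0.86), followed. Rap1gap2, Zmynd15, Trim16 and Rasd1, a Ras-like protein induced by dexamethasone, lay 24.8, 28.7, 36.3 and 39.2 Mb away, and Rasd1 had a mean of -0.96. The brightest other probes of Utp18, Msi2 and Cdc42ep4 had means of -0.47, -0.53 and -0.08, and that of Rap1gap2 had 0.11. The other members on this chromosome had no other probe that passed. The 30 bases that open the probes of Smarce1 and Plcd3, the members nearest to Ccr7, are these.
Smarce1 probe: cgtttccagaggaaccaccgtctcatcagt
Plcd3 probe: agtgagagagaggaccatgattggtgtcct
Of the 6 lower probes on chromosome 11 that were left out by name, Ccl3 had -2.24 and -1.90. The name of the knock-out strain gives 129P2(C), not 129 alone, as the donor part. Genotype and any donor sequence that remains around Ccr7 therefore cannot be told apart in these data.

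**Figure D5:**
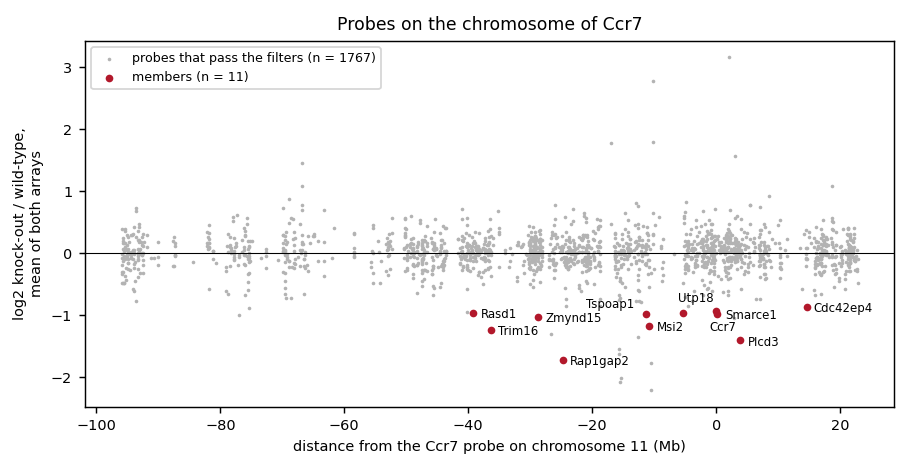
Mean log2 knock-out over wild-type ratio (y axis) against distance from the Ccr7 probe (x axis, Mb) for 1767 probes on chromosome 11 that passed the filters (grey) and the 11 members there (red, named). The members lie between -39.2 and 14.6 Mb, and none lies farther from Ccr7 than 40 Mb.

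How the signals were processed set which genes met the threshold. All 56 stayed below 0 in the mean of both arrays with normexp and loess, and with background subtraction and no dye normalisation. On each array separately 56 and 47 were below 0. Those above 0 on array 2 without dye normalisation were Psd3, Hspb1, Lmna, Tg, Tnfrsf19, Rasd1, Araf, Sprtn and Cep290. The threshold on both arrays was met by 16 and 17 of them under these choices. Under all 3 ways, the processed signals included, it was met by 14 genes, which were Cd8b1, Cplx2, Gtf2a1, Galnt14, Upb1, Tcrb-V13, Lysmd2, Adora2a, Car2, Smarce1, Tspoap1, Sgk1, Gad1 and Slamf9. All 3 ways use the spots of the same member probes. The brightest other probes of Gtf2a1, Adora2a and Cplx2 had means of 0.27, 0.16 and -0.0048. Those of Tcrb-V13 and Gad1 had -0.55 and -0.76, and that of Cd8b1, placed on chromosome 5, had 0.19. For the rest of the 14 no other probe passed. Ccr7 met the threshold without dye normalisation (-1.03 and -0.99) and missed it with loess (-1.11 and -0.74). Thy1 had -0.93 and -0.63 with loess, and Plk2 had -1.93 and -0.61.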

How the data were processed

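B cells of both genotypes were measured on 2 dual-colour arrays, and each array counts as 1 replicate. The deposited spot intensity values were made with Agilent Feature Extraction 9.5.3.1, per the submitters' processing notes, and per the file headers that program background-subtracted and dye-normalised them into processed signals and a log10 ratio. The deposited value table holds log2 ratios, which, with the sign set so that negative means lower in the knock-out, equalled the processed ratio at every spot that passed the filters (tolerance 0.001). From the processed signals a log2 ratio was computed per spot and averaged per probe. Outlier flags are those for non-uniform and population outlier features. A gene was a member with at least 1 probe at the threshold, and its brightest member probe stands for it. The genes named are the 24 lowest means, members of the gene lists, 3 on each side of the threshold and Ccr7, and others are named for their group, position or probes after their values were seen. Members and lists were chosen with earlier results of these data known. Loess used limma 3.58.1 in R 4.3.3 (normexp offset 50). The selection step was tested on simulated ratios, with known changes set only in probes above the median signal. That test does not cover changes in dim probes, which measured most members. Of the members, 43 were named by RefSeq accession and 13 by symbol or synonym.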

Additional observations from a re-analysis of the deposited data

How the results depend on the processing

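The number of genes at the threshold on both arrays, 56, changed with the arrays used, the threshold, the signal processing and the treatment of several probes of a gene. Either array alone gave 212 to 475 genes. It was 188 at a threshold of -0.5 and 16 at -1, 131 with the background limit on the wild-type channels only, and 32 where the mean over all probes of a gene had to meet the threshold. It was 17 with normexp and loess and 22 with background subtraction and no dye normalisation. Both of these signal choices change background and dye correction together. Of the 56 genes, 16, 17 and 32 met the threshold with loess, without dye normalisation and by the mean over all probes. In the last case 29 genes have no other probe that passed, and 3 of the other 27 met it. Their median moved from -1.09 to -0.79 with loess and to -0.81 without dye normalisation. The cause was not tested. The number stayed within 53 to 80 under the other choices (value table, centring, outlier flags, spots, low-gain probes and names kept), and no ratio reversed in the mean of both arrays under any processing of the spots. Each ratio already pairs the 2 pools of 1 array, so a further replicate block has nothing to act on. Dim probes and n = 2 limit the precision.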

Other observations

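The 5 Ms4a4b probes that passed the filters spread over both directions. The member probe (chromosome 19, 11512667 to 11512726 on mm8) had a mean of -1.13 at a mean signal of 57.3. Probes 4.34 and 17.5 kb from it had -0.70 and -0.61 at signals of 99.5 and 964. Probes 9.14 and 12.2 kb from it had 0.41 and 0.24 at signals of 10920 and 7499.

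Some members are better known from other tissues. Tg, thyroglobulin, had signals of 82.0 and 42.1 in the wild-type and 30.1 and 24.9 in the knock-out. A second Tg probe starts 0.02 kb away and overlaps the first, so it is not a separate measure. Its ratios were -1.14 and -0.29, a mean of -0.72. Without dye normalisation the Tg member probe had -1.15 on array 1 and 0.36 on array 2. Gad1 had 622 and 512 in the wild-type and 332 and 265 in the knock-out, with ratios of -0.91 and -0.95.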
